A study of Mus musculus with 6 samples.

Results

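Transcripts of 10 genes that mark or carry out cellular senescence and the p53 response were followed in lymphatic endothelial cells sorted from the meninges, which wrap the brain, of young and old mice. The genes were listed by name, with no threshold on a measured value: the cell cycle inhibitors Cdkn2a, Cdkn2b and Cdkn1a, the transcription factor gene Trp53, the p53 targets Mdm2, Ccng1, Bax, Zmat3 and Phlda3, and the nuclear lamina gene Lmnb1. Of these 10 genes, 9 had a row in the deposited table of 22964 genes, and 8 had enough counts to be tested. Cdkn2a had no row and was not analysed here. Cdkn2b had a row but too few counts for a test.

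All mice were untreated wild-type C57BL/6J males, aged 2 to 3 months in the young group and 20 to 24 months in the old group, with 3 samples per group. The cells were sorted as negative for the leukocyte protein CD45 and positive for CD31 and podoplanin, a combination that lymphatic endothelial cells carry. The RNA was amplified linearly before sequencing. Mice of either supplier, a company and the US ageing institute, were used, and the labels do not tie a sample to its supplier. They also do not say whether a sample was 1 animal or a pool, so each p-value measures the spread between samples, which may be technical.

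Senescence is a lasting stop of the cell cycle that cells enter after damage, telomere loss or excessive growth signals. It is held in place by a pair of routes: p53, encoded by Trp53, switches on Cdkn1a, whose product p21 blocks cyclin-dependent kinases, while the Ink4 proteins encoded by Cdkn2a and Cdkn2b block the kinases Cdk4 and Cdk6 that inactivate the retinoblastoma protein. Mdm2 is both a p53 target and the ligase that marks p53 for degradation, so the pair forms a feedback loop. Lmnb1 encodes lamin B1, a filament of the nuclear lamina whose loss is used as a marker of senescent cells. p53 protein is controlled mainly through its stability, modification and location, which messenger RNA does not report.

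p53 binds DNA as a tetramer, at sites made of a pair of 10-base half-sites. The half-site is shown because it is the sequence through which p53 binds its targets, Cdkn1a among them. The Ink4 genes and Lmnb1 are in the group for other reasons. The 250 bases before each annotated start were searched for exact matches to the p53 half-site consensus, which reads the same on both strands, in RefSeq promoters of build GRCm38.p6. Promoters were read for 8 of the 10 genes, all but Lmnb1 and Zmat3, and 5 of these 8 held a match: Cdkn1a, Trp53, Mdm2, Ccng1 and Bax. Of all 27025 genes with a promoter, 8.20% held a match in at least 1 of them, and of the 32851 promoters, 7.13% held at least 1 match and 0.259% held 2 or more. Cdkn1a, which has a pair of annotated promoters, held 2 matches in the first, beginning 73 and 51 bases before that start and separated by 12 bases. Its other promoter (chr17:29093519-29093768) held 0. These are the 250 bases of the first, on the plus strand, 5′ to 3′, with the half-sites in capitals.
Cdkn1a, chr17:29090729-29090978: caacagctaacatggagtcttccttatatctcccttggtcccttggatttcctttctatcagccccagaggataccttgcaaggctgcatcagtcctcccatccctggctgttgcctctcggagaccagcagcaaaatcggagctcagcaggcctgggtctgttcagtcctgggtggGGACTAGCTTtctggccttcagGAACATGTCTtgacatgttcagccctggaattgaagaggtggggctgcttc
The single matches of the other 4 genes are given with 20 bases on each side, again with the half-site in capitals and read along the gene's own strand.
Trp53, chr11:69580264-69580313, plus strand: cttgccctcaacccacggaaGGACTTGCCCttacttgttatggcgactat
Mdm2, chr10:117710915-117710964, minus strand: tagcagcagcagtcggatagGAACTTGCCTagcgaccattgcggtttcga
Ccng1, chr11:40755442-40755491, minus strand: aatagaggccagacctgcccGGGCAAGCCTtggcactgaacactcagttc
Bax, chr7:45467070-45467119, minus strand: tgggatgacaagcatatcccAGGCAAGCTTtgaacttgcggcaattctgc
The match began 75 bases before the start of Trp53, 186 before Mdm2, 185 before Ccng1 and 201 before Bax. No exact match was found in these windows for Phlda3, Cdkn2b or Cdkn2a. A match is a run of letters and not a measured binding site, and sites lying further away or within introns were outside the search. So were half-sites that differ from the consensus at any base, also those beside a marked match. Whether the 2 Cdkn1a matches act as 1 pair was not tested.

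The libraries held 14285794 to 21043945 estimated counts. Levels are given in CPM, the counts scaled to a common total after TMM scaling, a correction for differences in library composition. Transcripts of lymphatic endothelium were present in every sample: the 8 markers listed for it, led by Ccl21a and Mmrn1, summed to 10461 to 12962 CPM in young and 16548 to 20309.9 CPM in old samples, and none was at 0. Other cell types also left transcripts, with summed levels in young and old samples of 5334 to 8199 and 2587 to 3069.9 CPM for 8 fibroblast markers, led by Col1a2 and Col1a1, and 414 to 625 and 873 to 1369.8 CPM for 7 blood endothelial markers, led by Flt1 and Vwf. The 8 pericyte and smooth muscle markers, led by Rgs5 and Myh11, summed to 620.4 to 959 and 859 to 1950.3 CPM. The lymphocyte markers, led by Jchain and Cd79a, summed to 8.60 to 61.5 and 34.2 to 57.6 CPM, and the granulocyte and mast cell markers, led by S100a8 and S100a9, to 1.99 to 41.6 and 2.10 to 173 CPM. By log2 fold change, old against young, all 8 fibroblast markers were lower, with a median of −1.17. All 8 lymphatic and all 7 blood endothelial markers were higher, with medians of 0.60 and 0.89. In such bulk samples, fewer cells of a type and less RNA per cell cannot be told apart. The part of these marker differences in the levels of the genes and lists below was not tested.

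None of the 8 tested genes differed between young and old cells beyond the spread between samples. By edgeR's quasi-likelihood test with Benjamini-Hochberg adjustment over all 15394 genes tested, no gene of the group had an adjusted p below 0.917, the value of Cdkn1a. The old mean was lower for 6 genes and higher for Trp53 and Phlda3, with a median log2 fold change, old against young, of −0.36 against 0.02 over all genes tested. Over all genes tested, 49.0% had a lower and 51.0% a higher old mean by the same measure. At an unadjusted p under 0.05, edgeR counted 0 of the 8 genes, against 5.56% of all genes. In every one of the 8 genes the young and old samples overlapped, whereas the ages did not overlap in 12.0% of all genes. Over all 15394 genes tested, edgeR called 0 (0%) at an adjusted p under 0.05 and counted 856 at an unadjusted p under 0.05. DESeq2, run without the same filter on low counts, called 294, or 1.79% of the 16435 genes to which it gave an adjusted p. limma-voom called 3. None of the genes called was in the group.

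**Figure D1:**
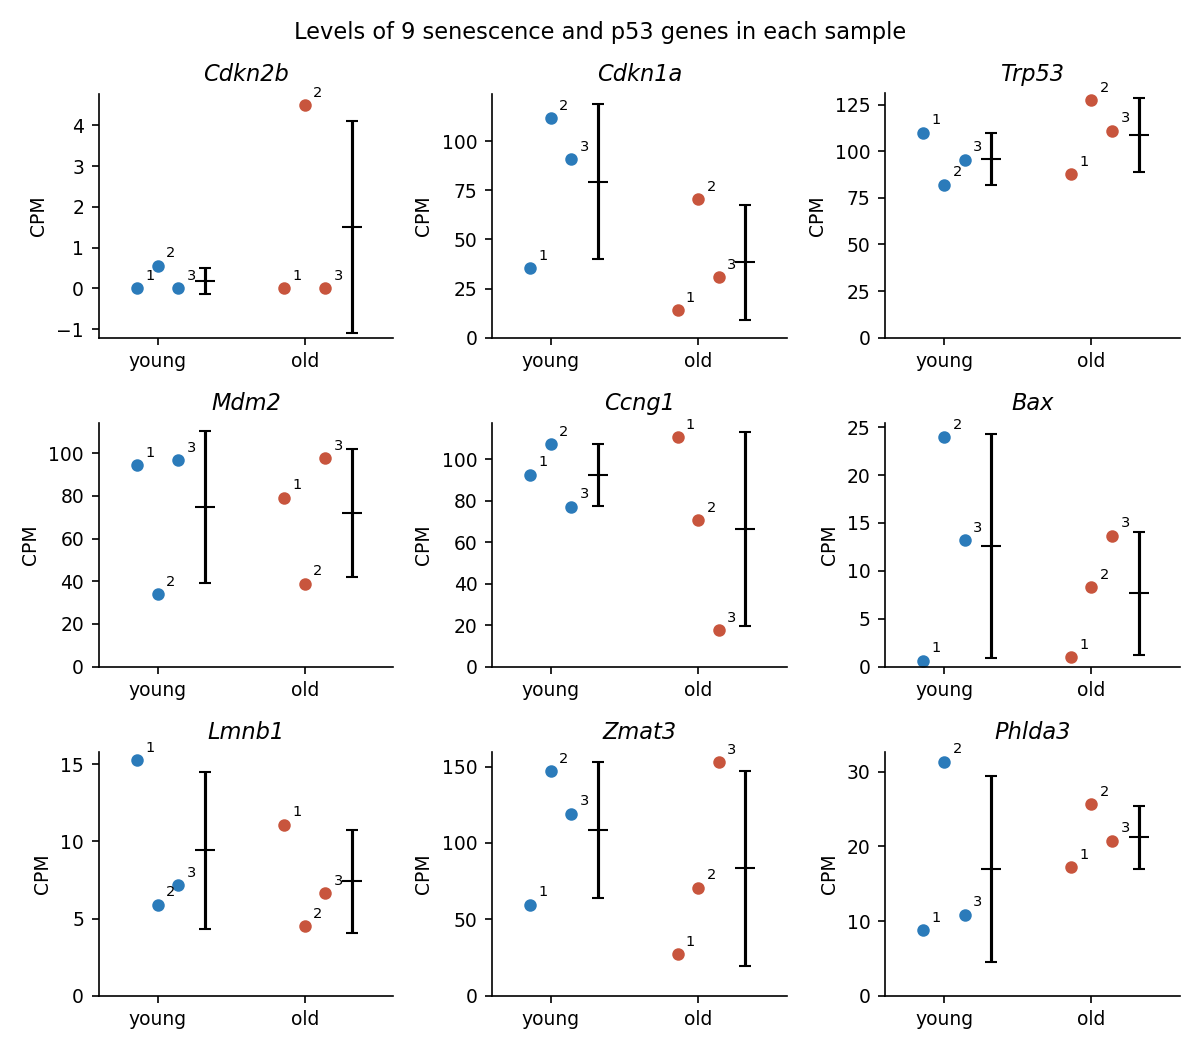
Level in CPM of each of the 9 genes with a row in the table, in the 3 young (blue) and 3 old (red) samples, with the sample number beside each point and the mean and SD of each group in black. The young and old points overlap in every panel, and Cdkn2b has a level above 0 only in young sample 2 and old sample 2.

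Of the 3 cell cycle inhibitors of the group, only Cdkn1a could be tested. Cdkn1a (ENSMUSG00000023067; chromosome 17, 29090976 to 29100727, plus strand, in GRCm38) encodes p21. Young samples 1, 2 and 3 held 35.6, 112 and 91.1 CPM of it, and old samples 1, 2 and 3 held 13.8, 70.6 and 30.7 CPM. Sample 1 was the lowest of its age in both groups and sample 2 the highest, and young sample 1 lay below old sample 2, so the ages overlapped. The young mean was 79.5 ± 39.4 CPM and the old mean 38.4 ± 29.2 CPM (SD, n = 3 here and below). The log2 fold change was −1.05 (SE 0.68), with a 95% interval of −2.59 to 0.49, and edgeR gave an adjusted p = 0.917. Without old sample 2 the log2 fold change was −1.84, which passed an unadjusted but not an adjusted threshold of 0.05 (edgeR adjusted p = 0.601), and without old sample 1 it was −0.65.

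Cdkn2b (chromosome 4, 89306299 to 89311039, minus strand), which encodes p15Ink4b, was at the edge of detection. It had 11 counts in young sample 2, or 0.559 CPM, and 62 counts in old sample 2, or 4.5 CPM. The other 4 samples had 0 counts, which allows a level of up to 0.186 and 0.135 CPM in young samples 1 and 3 and up to 0.224 and 0.146 CPM in old samples 1 and 3, taking 3 counts as the limit and counting error alone. Each age thus had 1 sample with counts and 2 without, and no fold change is given.

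Trp53 itself (chromosome 11, 69580359 to 69591873, plus strand) was the steadiest gene of the group. The young samples held 110.0, 82.1 and 95.5 CPM and the old ones 87.6, 127 and 111 CPM, a range that stayed within 1.34-fold among young and 1.45-fold among old samples. The highest values were those of old samples 2 and 3, but old sample 1 lay below young samples 1 and 3. The means were 95.8 ± 14 and 109 ± 20.0 CPM. The log2 fold change was 0.18 (SE 0.33), with a 95% interval of −0.56 to 0.92, that is, of 0.680-fold to 1.89-fold on the linear scale. edgeR gave an adjusted p = 0.970. The annotation holds a processed pseudogene of Trp53, Trp53-ps, which had no row in the table, so how its reads were assigned is not known.

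Mdm2 (chromosome 10, 117688875 to 117710758, minus strand), the ligase that degrades p53, had 94.4, 33.9 and 96.6 CPM in young and 79.2, 38.9 and 97.8 CPM in old samples. Sample 2 was the low one at both ages, the reverse of Cdkn1a, in which sample 2 was the high one. The means were 75 ± 35.6 and 72.0 ± 30.1 CPM, and the log2 fold change was −0.059 (SE 0.53) with a 95% interval of −1.27 to 1.15 and an edgeR adjusted p = 0.9996. The sign of this small difference changed in 5 of the 14 alternative analyses.

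Ccng1 (chromosome 11, 40748552 to 40755311, minus strand) encodes cyclin G1, which recruits a phosphatase to Mdm2. Its levels were 92.7, 107 and 77.2 CPM in young and 111, 70.7 and 17.6 CPM in old samples. Old sample 3 was low, at less than any other sample, while old sample 1 was the highest of all 6. The spread was 1.39-fold among young and 6.30-fold among old samples. The means were 92.4 ± 15 and 66.3 ± 46.7 CPM, with a log2 fold change of −0.48 (SE 0.60), a 95% interval of −1.84 to 0.88 and an edgeR adjusted p = 0.960. Without old sample 3 the log2 fold change was −0.029.

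Bax (chromosome 7, 45461697 to 45466898, minus strand), which encodes a protein that opens the outer mitochondrial membrane in apoptosis, was the most variable gene tested in the group. It had 0.621, 24.0 and 13.2 CPM in young and 0.973, 8.28 and 13.7 CPM in old samples. Sample 1 was nearly without Bax at both ages, with 10 counts in young sample 1 and 13 in old sample 1 against 114 to 472 in the other samples. The means were 12.6 ± 11.7 and 7.64 ± 6.37 CPM. The log2 fold change was −0.72 (SE 1.36), and its 95% interval ran from −3.82 to 2.38, so neither a large rise nor a large fall lay outside it. edgeR gave an adjusted p = 0.972. The biological coefficient of variation that edgeR assigned was 111% for Bax, against 36.0% for Trp53 and a median of 84.2% over all genes. The annotated gene Gm45808 overlaps Bax on the same strand and had no row in the table.

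Zmat3 (chromosome 3, 32334792 to 32366014, minus strand), a zinc finger RNA-binding protein that acts in p53-dependent splicing and growth control, had 59.6, 147 and 119 CPM in young and 27.1, 70.8 and 153 CPM in old samples. Old sample 3 was the highest of all 6 and old sample 1 the lowest. The means were 109 ± 44.6 and 83.6 ± 63.9 CPM, with a log2 fold change of −0.38 (SE 0.61), a 95% interval of −1.77 to 1.02 and an edgeR adjusted p = 0.967. The value was 0.041 without old sample 1 and −1.15 without old sample 3.

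Phlda3 (chromosome 1, 135766119 to 135769136, plus strand), a pleckstrin homology domain protein that competes with Akt for membrane lipids, had 8.75, 31.4 and 10.8 CPM in young and 17.2, 25.6 and 20.8 CPM in old samples. Young sample 2 stood above every other sample, and the 3 old samples lay between it and the other two young ones. The means were 17.0 ± 12.5 and 21.2 ± 4.23 CPM, and the log2 fold change was 0.32 (SE 0.77), with a 95% interval of −1.43 to 2.07 and an edgeR adjusted p = 0.978. Without young sample 2 it was 1.11.

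Lmnb1, whose transcript is reported to drop in senescent cells, was low in all samples. It had 15.3, 5.89 and 7.16 CPM in young and 11.1, 4.5 and 6.64 CPM in old samples. Sample 1 was the highest at each age and sample 2 the lowest. The means were 9.44 ± 5.09 and 7.41 ± 3.35 CPM, with a log2 fold change of −0.35 (SE 0.97), a 95% interval of −2.55 to 1.85 and an edgeR adjusted p = 0.984. At this depth and spread, a loss to 0.171-fold and a gain to 3.6-fold both lay within the interval. Without young sample 1 the log2 fold change was 0.18.

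**Figure D2:**
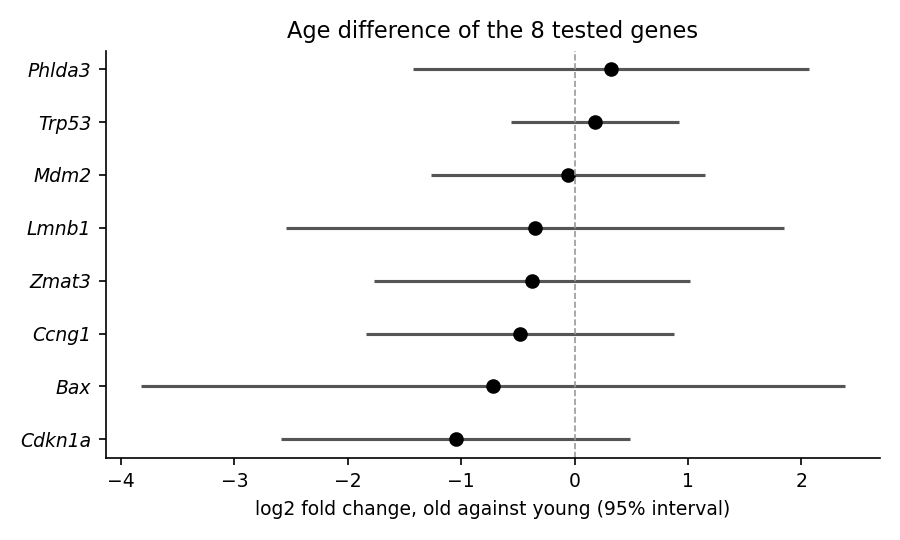
Log2 fold change, old against young, of the 8 tested genes with 95% intervals from edgeR. Every interval spans 0, and Trp53 has the narrowest (−0.56 to 0.92) and Bax the widest (−3.82 to 2.38).

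Levels can be set side by side between genes only per length, so each gene's CPM was divided by the kilobases of its annotated exons. That length merges all annotated exons of a gene, whichever transcript is expressed. How evenly the amplified RNA covered each gene was not tested, so the orders below are approximate. In young cells the order was Ccng1 at 26.3 ± 4.28, Trp53 at 23.7 ± 3.45, Cdkn1a at 22.4 ± 11.1, Mdm2 at 14.7 ± 7.01, Phlda3 at 10.9 ± 8.02, Zmat3 at 9.49 ± 3.90, Bax at 8.0 ± 7.42 and Lmnb1 at 3.19 ± 1.72 CPM per kilobase. In old cells it was Trp53 at 26.9 ± 4.95, Ccng1 at 18.9 ± 13.3, Mdm2 at 14.2 ± 5.92, Phlda3 at 13.6 ± 2.72, Cdkn1a at 10.8 ± 8.21, Zmat3 at 7.31 ± 5.58, Bax at 4.85 ± 4.04 and Lmnb1 at 2.5 ± 1.13 CPM per kilobase. Among these 8, neighbours in either order differed by less than the sum of their SDs. Cdkn2b stood last at both ages, at 0.134 ± 0.232 and 1.08 ± 1.87 CPM per kilobase. Trp53 and Ccng1 led at both ages, and Bax and Lmnb1 were the lowest of the 8 tested. Cdkn1a stood next after these leaders in young cells and below Mdm2 and Phlda3 in old cells.

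**Figure D3:**
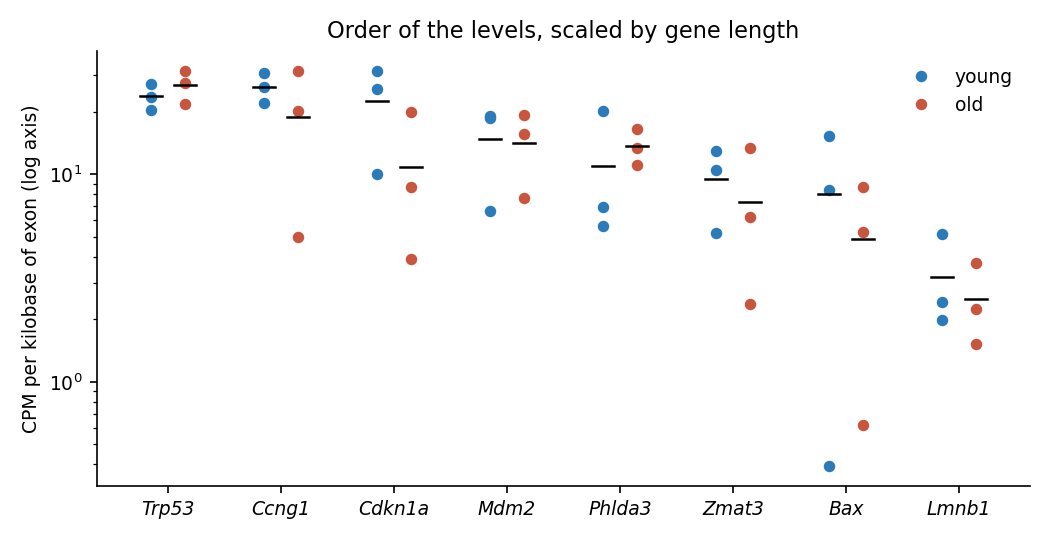
CPM per kilobase of annotated exon, on a log axis, for the 8 tested genes in young (blue) and old (red) samples, with short black lines at the group means. Trp53 points lie close together, and the 2 low Bax points are the sample 1 libraries of each age.

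The genes did not share 1 pattern across the samples. Sample 1 was the lowest of its age for 4 genes among young and 5 among old samples, and it held the highest value of its age for 2 genes in each group. The share of all genes that were lowest in sample 1 was not computed, so these counts are not read as a result. Cdkn1a, Bax, Zmat3 and Phlda3 were lowest of their age in sample 1 at both ages. The summed macrophage markers were lowest there too. The 10 markers listed summed to 632, 2882 and 4341 CPM for young samples 1, 2 and 3, against 805, 1858 and 1049 CPM for old samples 1, 2 and 3. The match did not extend to all the other samples. Among young samples the sum was highest in sample 3, but Cdkn1a, Bax, Zmat3 and Phlda3 were highest in sample 2. Among old samples the sum, Cdkn1a and Phlda3 were highest in sample 2, but Bax and Zmat3 were highest in sample 3. Cd68, C1qa, C1qb, C1qc, Csf1r and Cx3cr1 were lowest in sample 1 at both ages. Fcgr3, Tyrobp, Mrc1 and Aif1 were not lowest in old sample 1, and Aif1 was highest of its age there. All 10 had a count in every sample except Tyrobp, which was at 0 in old sample 2, and 9 of the 10 had a negative log2 fold change, with a median of −1.75. Csf1r, the receptor that macrophages need, had 77.8, 1006 and 1798 CPM in young and 46.6, 695 and 141 CPM in old samples. Mrc1, which lymphatic endothelium also expresses, had 401, 452 and 362 CPM in young and 679, 414 and 739 CPM in old samples. It made up most of the sum in young sample 1 and in old samples 1 and 3. The part of macrophages in the levels of Cdkn1a, Bax, Zmat3 and Phlda3 was not tested.

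**Figure D4:**
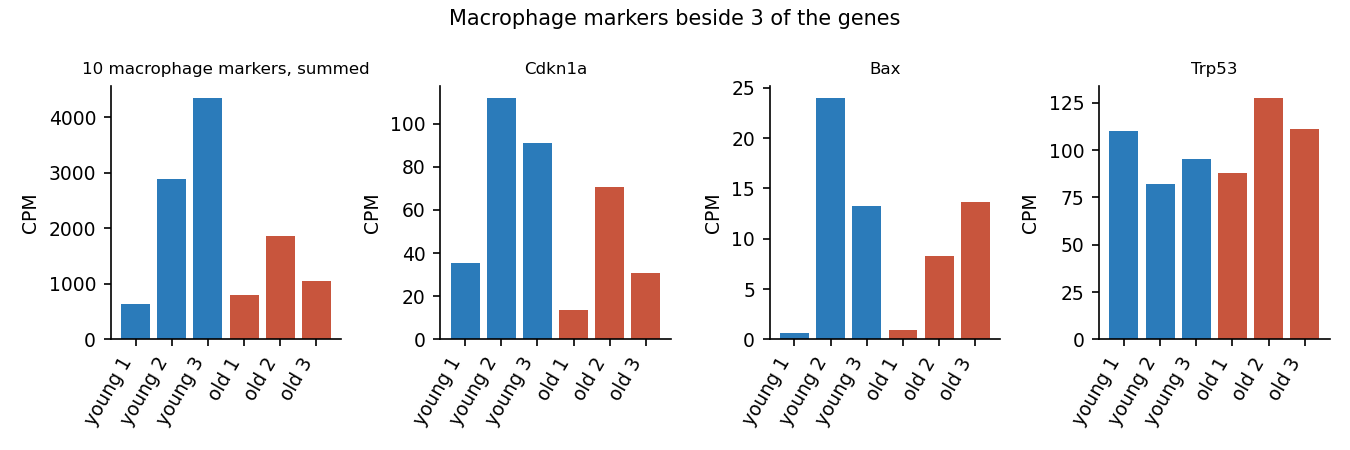
Summed CPM of 10 macrophage markers and the CPM of Cdkn1a, Bax and Trp53 in each of the 6 samples, young in blue and old in red, with each bar starting at 0. The macrophage sum, Cdkn1a and Bax are lowest of each age in sample 1, whereas Trp53 in young sample 1 is the highest of its age at 110.0 CPM. Among young samples the sum is highest in sample 3, and Cdkn1a and Bax in sample 2. Among old samples the sum and Cdkn1a are highest in sample 2, and Bax in sample 3.

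With both sample 1 libraries left out, an alternative chosen after these values were seen, the ages no longer overlapped for 3 of the 8 genes, Cdkn1a and Ccng1 with lower and Trp53 with higher old samples. With 2 samples a group this held for 36.6% of all genes, close to the share in the group. No gene of the group reached an unadjusted edgeR p under 0.05 in that analysis. The log2 fold change of Cdkn1a was then −1.0.

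As a description of the Cdkn1a pattern, the 3 genes whose log2 CPM followed it most closely over the 6 samples were Ranbp10, which encodes a Ran-binding protein (Pearson's r = 0.994), Cerk, which encodes ceramide kinase (0.989), and Fyb, which encodes an adaptor of leukocytes (0.985). These were chosen out of 9451 genes with a mean of at least 10 CPM, of which 169 reached 0.9 or more, and the 6 points share their libraries and depth. Ranbp10 had 30.7, 64.1 and 53.4 CPM in young and 17.5, 45.3 and 24.8 CPM in old samples. Cerk had 24.2, 50.9 and 36.9 CPM in young and 13.1, 34.2 and 22.3 CPM in old samples. Fyb had 25.4, 127 and 159 CPM in young and 3.29, 77.2 and 11.3 CPM in old samples.

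The wider p53 programme was read from a list of 33 other p53 target genes, of which 31 were tested. Of these, 20 had a higher and 11 a lower old mean, the median log2 fold change was 0.32 against 0.02 over all genes, and edgeR called none, their lowest adjusted p being 0.760. Below 0.05 without adjustment there was 1, Perp, a desmosomal p53 target, against 5.56% of all genes. Perp had 86.0, 53.9 and 52.8 CPM in young and 11.1, 20.8 and 22.1 CPM in old samples, with every old sample below every young one. Its log2 fold change was −1.83 (SE 0.54). Tnfrsf10b, the death receptor for TRAIL, had 19.6, 23.9 and 24.1 CPM in young and 45.2, 69.5 and 34.9 CPM in old samples, all old samples above the young ones, at an edgeR adjusted p = 0.888. Of the 31 genes, 1 had every old sample above and 2 had every old sample below the young ones. The ages did not overlap in 12.0% of all genes. Apaf1, the core of the apoptosome, had 91.0, 74.7 and 48.9 CPM in young and 175, 77.7 and 115 CPM in old samples. The most abundant targets were Plk2, a kinase, with 115 to 164 CPM in young and 113 to 252 CPM in old samples, and Btg2, an antiproliferative factor, with 73.2 to 134 and 62.9 to 159 CPM. Gdf15, a secreted p53 target, had 0 counts in the 3 young samples and 0, 1 and 17 counts in the old samples, too few for a test. The list's median was −0.014 by limma-voom, 0.20 with library size as the only scaling and 0.13 without old sample 1.

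Genes that act on p53 or signal DNA damage to it numbered 20, all tested, of which 14 had a higher and 6 a lower old mean, with a median log2 fold change of 0.18. The median was 0.051 without young sample 2, 0.11 without young sample 1, 0.29 without old sample 3 and 0.30 without young sample 3. edgeR called none. At an unadjusted p under 0.05 stood 1 of the 20, or 5%, against 5.56% of all genes. That gene was H2afx, which encodes the histone variant marked at DNA breaks. It had 9.50, 32.2 and 20.0 CPM in young and 60.2, 46.4 and 54.0 CPM in old samples, with no overlap, as for 12.0% of all genes. Its log2 fold change was 1.38 (SE 0.60), at an edgeR adjusted p = 0.888. Chek2, a checkpoint kinase, rested on old sample 1, with 54.3 CPM there, 1.74 and 5.27 CPM in old samples 2 and 3 and 2.98 to 5.45 CPM in young samples. The acetyltransferase genes Crebbp and Ep300 were the most abundant, with 210.1 to 398 and 183 to 257 CPM for Crebbp and 202 to 289 and 238 to 266 CPM for Ep300 in young and old samples.

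The retinoblastoma arm, with the other kinase inhibitors, cyclins D and E, and regulators of the Ink4 genes, had 22 of 23 genes tested, 8 higher and 14 lower in old cells, with a median log2 fold change of −0.46. The median was −0.15 without young sample 2, −0.26 without young sample 3 and −0.26 without old sample 1. edgeR called none, and 3 stood at an unadjusted p under 0.05, or 13.6% of the list against 5.56% of all genes. That share, the 14 lower genes and the median include Cdkn2d, which passed the filter only through the young samples. The share, the count of lower genes and the median are therefore not read as results. Ets1 and Ets2, transcription factors that can activate the Ink4a promoter, were 2 of the 3. Ets1 had 242, 289.8 and 209 CPM in young and 413, 395 and 397 CPM in old samples, a log2 fold change of 0.70 (SE 0.22), and Ets2 had 144, 75.1 and 142 CPM in young and 289, 169.9 and 286 CPM in old samples, a log2 fold change of 1.05 (SE 0.36). Both had every old sample above every young one, which held in either direction for 12.0% of all genes, and the edgeR adjusted p = 0.819 and 0.855. The other was Cdkn2d, which encodes the inhibitor p19Ink4d, with 35, 40 and 14 counts in young and 1, 0 and 1 counts in old samples. It passed the filter on low counts only through the young samples, so its inclusion required a difference and its p is no support. Of the 22 tested genes, 2 had every old sample above and 3 had every old sample below the young ones. Those above were Ets1 and Ets2, and those below were Cdkn2d, Rbl2 and Ezh2. The count below includes Cdkn2d and is not read as a result.

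The other 11 genes of the nuclear lamina and envelope, the structure that Lmnb1 belongs to, were all tested, Hmgb1 and Hmgb2 (chromatin proteins) being listed with them, with 6 higher and 5 lower in old cells and a median log2 fold change of 0.14, which ran from −0.012 without young sample 3 to 0.44 without old sample 2. None stood at an unadjusted p under 0.05. Sun2, a link between the lamina and the cytoskeleton, had 170.2, 181 and 185 CPM in young and 156, 199 and 171 CPM in old samples. Tmpo, which encodes lamina-associated polypeptides, had 52.3, 41.8 and 77.1 CPM in young and 133, 29.2 and 106 CPM in old samples. Banf1, which ties chromatin to the lamina, had 25.5, 13.6 and 18.8 CPM in young and 132, 7.48 and 13.7 CPM in old samples, and Emd, which encodes emerin, had 56.3, 26.4 and 16.4 and then 94.95, 28.6 and 39.2 CPM. Old sample 1 was the highest of all 6 for Tmpo, Banf1 and Emd.

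Around Bax, 14 of 15 listed genes of the BCL2 family and the apoptosome were tested, 8 higher and 6 lower in old cells, with a median log2 fold change of 0.052 and none at an unadjusted p under 0.05. Leaving out young sample 1 gave a median of −0.15, leaving out old sample 1 or 2 gave −0.076 or −0.14, and leaving out any of the others gave 0.11 to 0.22. Bcl2l1, which encodes the survival protein BCL-XL, had 22.6, 24.4 and 34.0 CPM in young and 34.9, 49.98 and 105 CPM in old samples, and Bad, a proapoptotic member, had 9.74, 18.5 and 19.6 CPM in young and 3.59, 6.61 and 7.03 CPM in old samples. The ages did not overlap for either gene, as for 12.0% of all genes, and edgeR gave adjusted p = 0.888 and 0.894. Bik, another proapoptotic member, had 1.61, 14.8 and 3.74 CPM in young and 22.3, 14 and 59.7 CPM in old samples. The most abundant genes were Mcl1, a survival factor, with 339 to 411 CPM in young and 259 to 476 CPM in old samples, and Bcl2l11, which encodes BIM, with 33.4 to 117 and 48.3 to 91.2 CPM.

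Of 31 factors that senescent cells are known to secrete, 25 were tested, 9 higher and 16 lower in old cells, with a median log2 fold change of −0.11, which ran from −0.34 without young sample 1 to −0.053 without young sample 3. edgeR called none, and 4 of the 25 stood at an unadjusted p under 0.05, or 16% against 5.56% of all genes: Timp1 and Cxcl12 with higher and Mmp13 and Igfbp5 with lower old means. Timp1, an inhibitor of matrix proteases, had 10.2, 18.2 and 1.98 CPM in young and 6.88, 94.7 and 85.3 CPM in old samples, so old sample 1 lay among the young ones. Mmp13, a collagenase, had 34.8, 37.3 and 3.20 CPM in young samples and 1.27 CPM in old sample 3, with 0 in the other two old samples. It passed the filter through the young samples, so its p is no support either. The 16%, the 16 lower genes and the median of −0.11 include Mmp13 and are not read as results. Igfbp5, a binding protein of insulin-like growth factors and the most abundant of the list, had 10820, 9450.2 and 7972 CPM in young and 8181, 5151 and 6796 CPM in old samples, a log2 fold change of −0.49 (SE 0.19) at an edgeR adjusted p = 0.888. Igfbp4 had 518 to 867 CPM in young and 436 to 743 CPM in old samples. Il6, a cytokine often used as a sign of this secretion, had 0 counts in the young samples and 2, 0 and 13 counts in the old samples.

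Proliferation genes, which senescent cells switch off, had 15 of 18 tested, 9 higher and 6 lower in old cells, with a median log2 fold change of 0.40 and no call by edgeR. At an unadjusted p under 0.05 there was 1 of the 15, or 6.67%, against 5.56% of all genes. That gene was Mki67, which encodes the proliferation antigen Ki-67. Mki67 had 19.6, 4.88 and 46.0 CPM in young and 99.8, 39.4 and 134 CPM in old samples. Its old sample 2 lay below young sample 3, and edgeR gave an adjusted p = 0.888. Pcna, the replication clamp, had 45.0 to 84.5 CPM in young and 71.8 to 96.4 CPM in old samples. Mcm2, part of the replicative helicase, had 10.7, 18.7 and 3.33 CPM in young and 0, 3.27 and 0.049 CPM in old samples, and Cenpa, the centromeric histone, had 10.2, 1.73 and 2.30 CPM in young and 0, 0 and 0.879 CPM in old samples. Both passed the filter through the young samples, where they were higher, so no direction is read from them. The 6 lower genes and the median of 0.40 include both, and are not read as results. The median of the list changed sign without the filter on low counts (−0.057), by DESeq2 (−0.017) and without old sample 3 (−0.18), and it was 0.046 without old sample 1, 0.11 without old sample 2, 0.25 without young sample 2 and 0.61 without young sample 3.

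**Figure D5:**
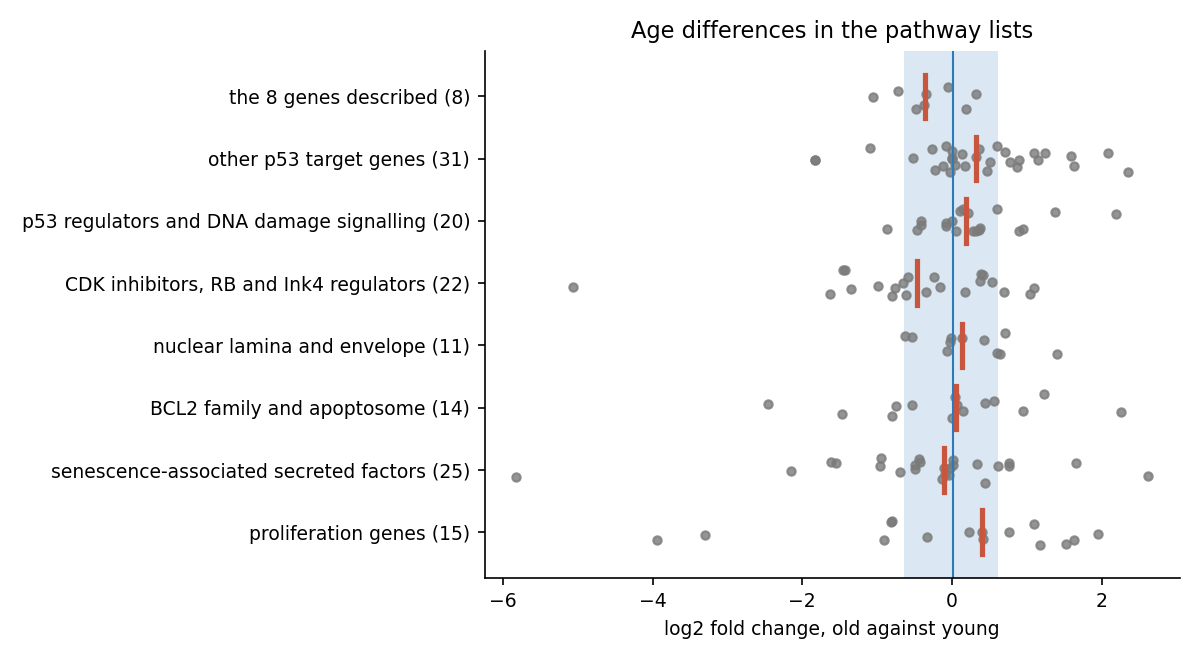
Log2 fold change, old against young, of each tested gene (grey points) in the group described and the 7 wider lists, with the number of genes in brackets and the list median as a red bar. The blue line and band are the median (0.02) and the interquartile range (−0.62 to 0.60) of all 15394 genes tested. The list medians run from −0.46 to 0.40.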

How the data were processed

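The authors deposited 1 table of estimated counts per gene, already in whole numbers, so rounding changed nothing. FastQC, Salmon and mm10 appear in the submitters' processing notes, without versions or roles. Neither the annotation, nor the gene-level summing, nor the strand setting is stated. Symbols, positions and exon lengths came from GENCODE M21 on GRCm38, which matched 22738 of 22964 identifiers. Groups were taken from the labels.

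The whole table was fitted with edgeR 4.0.16 in R 4.3.3: filterByExpr (minimum count 10, minimum total 15, leaving 15394 genes), TMM, and a robust two-sided quasi-likelihood test on age with no covariate, adjusted by Benjamini-Hochberg at 0.05. Fits were tested on simulated counts. CPM were computed from the deposited estimated counts over the genes kept. Log2 CPM used a prior count of 2. Alternatives used DESeq2 1.42.0, limma-voom (limma 3.58.1), other scalings and filters, a replicate block and each sample left out. Sequences came from RefSeq promoters (GRCm38.p6).

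The genes and lists were chosen with earlier results of these data known. All 10 genes of the group are named, together with the 3 genes of smallest p and the 2 of highest mean CPM per list, the 2 most abundant markers per cell type, and the 3 genes nearest to Cdkn1a. Cxcl12, Gdf15 and Il6 were named after their values were seen. No samples shared a library: chi-square per degree of freedom was at least 109.7.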

Additional observations from a re-analysis of the deposited data

How the results depend on the processing

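No gene of the group was called in any of the 14 alternatives, with a smallest adjusted p = 0.601. The directions of Cdkn1a, Trp53, Ccng1 and Phlda3 held in all 14. For Mdm2 limma-voom gave 0.053 and the analysis without both sample 1 libraries 0.079. Ranges of the log2 fold change with samples left out were −1.84 to −0.65 for Cdkn1a, 0.051 to 0.43 for Trp53, −0.41 to 0.24 for Mdm2, −1.07 to −0.029 for Ccng1, −1.45 to 0.15 for Bax, −0.76 to 0.18 for Lmnb1, −1.15 to 0.041 for Zmat3 and 0.0026 to 1.11 for Phlda3. For why the signs of Mdm2, Bax, Lmnb1 and Zmat3 changed, the cause was not tested.

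Over all genes, DESeq2 called 294, limma-voom 3 and edgeR 0 to 1 with samples left out. At an unadjusted p under 0.05 there were 1543 genes without the filter, 2006 by DESeq2 and 696 to 1396 with samples left out, the last without old sample 2. Of the group, 0 to 1 reached that level with samples left out, and 0 to 3 did not overlap between the ages. The 3 came without both sample 1 libraries, where 36.6% of all genes did not overlap. With 1 sample left out the share over all genes was not computed, so those counts are not read as a result. Scaling by library size alone took the median over all genes tested from 0.02 to −0.12.

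The labels give replicate numbers without saying whether they are pairs, so the main fit did not pair them. Deviations from the group means correlated at 0.079, 0.053 and −0.012 for same-numbered samples, and at −0.095 to 0.059 for the others. Young samples 1 and 2 followed the old samples of the same number best, whereas young sample 3 followed old sample 2 best (0.059). Whether same-numbered samples shared a batch was not tested. With the replicate block, edgeR called 0 genes and counted 712 at an unadjusted p under 0.05, of which 1 was of the group, Cdkn1a (edgeR adjusted p = 0.996).

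The median of the p53 target list was −0.014 by limma-voom and 0.027 with the replicate block. With samples left out, the median was −0.54 to −0.15 for kinase inhibitors and the retinoblastoma arm (−0.23 without both sample 1 libraries) and −0.18 to 0.61 for proliferation genes. The latter was also −0.057 without the filter, 0.75 at a mean of at least 50 counts and −0.017 by DESeq2. As to depth, the 8 tested genes had at least 62 counts in every sample, except Bax with 10 and 13 in the sample 1 libraries.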
